A study of Mus musculus with 32 samples.

Results

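Regulatory T cells are CD4 T cells that restrain other immune cells, and the transcription factor Foxp3 defines them. In visceral fat they are known to carry an effector program with the interleukin-33 receptor ST2, encoded by Il1rl1, the lectin-like receptor Klrg1 and the growth factor amphiregulin, encoded by Areg. The transcription factors Gata3, Rora and Pparg are known to act in this program. The cells described here were 79 barcodes of 19564 that passed a cell filter, out of 22703 deposited. They were selected on measured values: at least 300 genes detected, at most 10% mitochondrial UMIs (unique molecular identifiers, each a counted transcript), at least 1 UMI of Cd3d, Cd3e or Cd3g, none of Cd8a or Cd8b1, under 5 UMIs of C1qa, C1qb and C1qc together, and either a Foxp3 UMI or UMIs of all of Il2ra, Ctla4 and Ikzf2. Foxp3 selected 63 members and the 3 other genes selected 16.

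The cells came from the stromal vascular fraction of epididymal fat of C57BL/6 mice. In CD169-DTR mice a receptor for diphtheria toxin is expressed from the Siglec1 locus, whose product CD169 sits on tissue macrophages, so that toxin kills such cells. The 4 groups were: CD169-DTR on normal diet (ND-DTR), WT on normal diet (ND-WT), CD169-DTR on high fat diet (HFD-DTR) and WT on high fat diet (HFD-WT). The diets lasted 16 weeks, and both genotypes then received diphtheria toxin for 7 days, so no group was free of toxin. CD45+ and CD45- cells were sorted apart, with most F4/80-high cells and Ly6C-high monocytes gated out, and mixed in equal parts. Each group was 1 droplet library (10x 3′ chemistry), the sources used here do not state how many mice entered it, and nothing replicates it. Differences between libraries therefore have no test, and the intervals below cover counting error only.

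The filtered libraries held 3624 cells for ND-DTR, 5048 for ND-WT, 5705 for HFD-DTR and 5187 for HFD-WT. Their median depths were between 6218 and 9202 UMIs a cell. Siglec1, the targeted locus, had 113 UMIs in the library labelled ND-DTR against 5 in ND-WT, and 195 UMIs in HFD-DTR against 51 in HFD-WT. Siglec1 was thus higher in both libraries labelled DTR, against the direction that ablation would give, so the names above mean the library labelled so. Libraries shared 298 barcode sequences, of which 272 passed the filter and 1 belonged to a member.

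Members numbered 12 in ND-DTR, 30 in ND-WT, 13 in HFD-DTR and 24 in HFD-WT. A single Foxp3 UMI was the whole Foxp3 evidence in 28 of them, 35 had 2 or more, and the highest count was 9. At the other edges of the rule, 3 members had 1 CD3 UMI, and 1 member had 4 C1q UMIs, while the 7 Foxp3-positive CD3+ CD8- cells left out for C1q had between 8 and 492. Among Foxp3-positive cells of the filter, which numbered 97, 13 lacked CD3 and 14 had CD8. A further 109 CD3+ CD8- cells without Foxp3 had 2 of the 3 other genes and stayed outside. Free RNA in the droplets gave little Foxp3: a UMI was found in 2 of 773 B cells (0.259%, median 5491 UMIs) and in 3 of 6693 fibroblasts (0.0448%, median 11682 UMIs). Of all CD3+ CD8- cells, 4.81% had one, at a median of 3422 UMIs.

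The genes that chose the members are given as a description. Foxp3 stood at 268 CPM (UMI counts scaled to the total of the cells summed) in ND-DTR members, 159 in ND-WT, 276 in HFD-DTR and 104 in HFD-WT. Il2ra, the alpha chain of the interleukin-2 receptor, stood at 212 CPM in ND-DTR, 435 in ND-WT, 238 in HFD-DTR and 125 in HFD-WT. Ctla4, the inhibitory receptor, was detected in 12 of 12 ND-DTR members, 27 of 30 in ND-WT, 10 of 13 in HFD-DTR and 21 of 24 in HFD-WT. Ikzf2 (Helios), a transcription factor of regulatory T cells, was detected in 11 ND-DTR members, 30 in ND-WT, 8 in HFD-DTR and 21 in HFD-WT.

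The members fell into 2 kinds of profile by their MHC class II RNA. H2-Aa, H2-Ab1, H2-Eb1 and Cd74, the genes of antigen presentation by dendritic cells, macrophages and B cells, gave under 0.3% of UMIs in 41 members, whose highest share was 0.146%. They gave 0.590% to 9.80% in the other 38. The 0.3% line was drawn after these values were seen. The high members were also deep, with a median of 14364.5 UMIs against 3883 in the low ones. Lyz2, a lysozyme of myeloid cells, was detected in 36 of 38 high members and 2 of 41 low ones. Csf1r, the receptor of macrophage growth factor, was detected in 22 high members and 0 low ones, and Cd209a, a dendritic cell lectin, in 17 and 0. All 41 low members had a UMI of the alpha or beta chain of the T cell receptor. The alpha chain gene Trac was detected in 35 and a beta chain gene, Trbc1 or Trbc2, in 39.

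**Figure D1:**
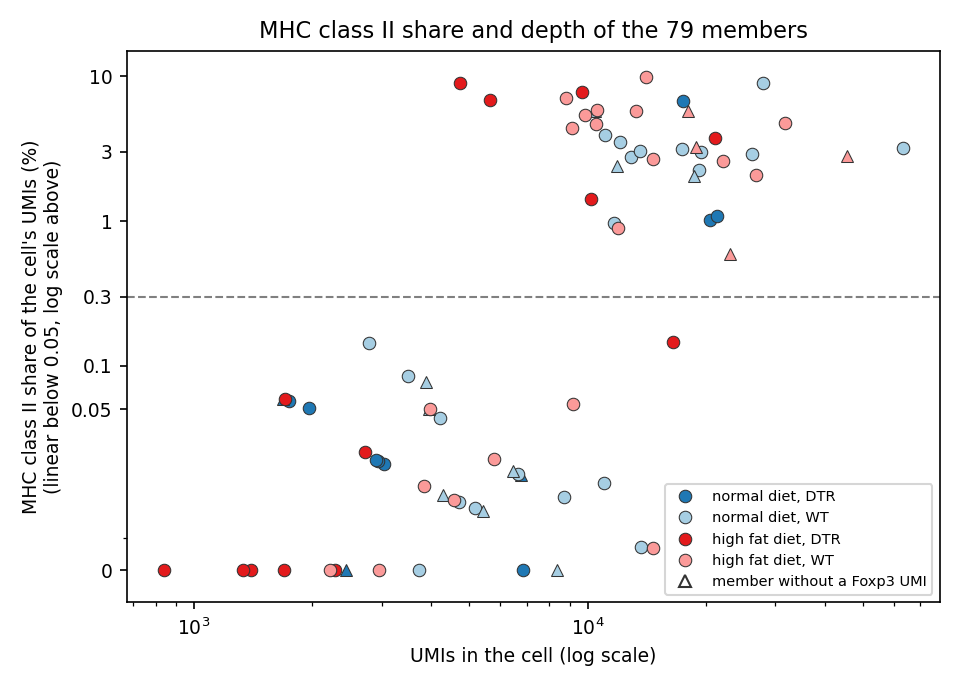
MHC class II share of each member's UMIs (vertical axis, percent) against the cell's UMIs (log scale), 1 point per cell, coloured by library, triangles for members without a Foxp3 UMI. No member lies between 0.146% and 0.590%, and the 38 cells above the dashed line at 0.3% have a median of 14364.5 UMIs against 3883 for the 41 below.

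High class II members made up 25.0% of members in ND-DTR, 46.7% in ND-WT, 38.5% in HFD-DTR and 66.7% in HFD-WT. Conventional CD4 T cells of the same libraries (CD3+, at least 1 Cd4 UMI, no CD8, Foxp3, Trdc or Ncr1) were high in 37.9% of ND-DTR, 41.8% of ND-WT, 13.0% of HFD-DTR and 26.9% of HFD-WT cells. The macrophage list summed to between 2101 and 5244 CPM in high members and between 51.7 and 445 CPM in low ones. In HFD-WT 2 high members were rich in Igkc, an antibody light chain, with 7925 and 13164 UMIs. A doublet caller marked 0 of the 79 members. It marked few cells at all, 236 of the 19564 that passed the filter, at an expected doublet rate of 5.4%. Whether such barcodes hold a T cell together with another cell was not tested, so each result below is also given for low class II members alone.

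Low class II members still differed in what else they carried. Of the 9 without Foxp3, 2 had 13 and 23 UMIs of Trdc, the constant gene of the delta chain of the gamma-delta T cell receptor, both in ND-DTR. Neither of these 2 had a Trac UMI. In HFD-WT 1 low member with Foxp3 had 13 Trdc UMIs as well. A single ND-WT member had 520 UMIs of Fabp4, a fatty acid carrier abundant in adipocytes and vessels, and 1 HFD-WT member had 80 UMIs of Col3a1, a fibroblast collagen. Mesothelial markers were at 0 UMIs in all 4 libraries, and neutrophil markers at 0 except for 1 UMI in HFD-WT. Single cells weighed heavily: the deepest low member supplied 22.6% of the UMIs in ND-DTR, 14.1% in ND-WT, 57.9% in HFD-DTR and 31.1% in HFD-WT.

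The share of CD3+ CD8- cells that were members was compared between libraries over all such cells at their full depth. They were 12 of 215 cells in ND-DTR (5.58%, exact 95% interval 2.92% to 9.55%) and 30 of 390 in ND-WT (7.69%, 5.25% to 10.8%). In HFD-DTR they were 13 of 286 (4.55%, 2.44% to 7.65%), and in HFD-WT 24 of 420 (5.71%, 3.70% to 8.38%). The log2 ratio of ND-DTR over ND-WT was -0.46 with an interval of -1.56 to 0.55, and that of HFD-DTR over HFD-WT was -0.33 (-1.43 to 0.70). HFD-WT over ND-WT gave -0.43 (-1.27 to 0.39) and HFD-DTR over ND-DTR -0.30 (-1.55 to 0.97). Each interval includes 0 and reaches below -1, so a 2-fold lower share lies within counting error. As a share of all CD3+ cells, HFD-WT over ND-WT gave -0.90, with an interval (-1.74 to -0.08) that excludes 0. The members were the same 24 and 30, now of 670 and 448 cells. CD3+ cells with CD8 and without Cd4 or Foxp3 numbered 235 in HFD-WT and 53 in ND-WT. This ratio therefore also changes with the number of CD8 T cells.

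Depth differed between the libraries. The median UMI count of CD3+ CD8- cells was 3455 in ND-DTR, 4279 in ND-WT, 1658.5 in HFD-DTR and 3423.5 in HFD-WT. That of members was 2991 in ND-DTR, 10751 in ND-WT, 2719 in HFD-DTR and 11240.5 in HFD-WT. The member medians include the deep high class II members. With every CD3+ CD8- cell thinned to 2000 UMIs and shallower cells left out, members were 2 of 175 cells in ND-DTR and 18 of 331 in ND-WT, a log2 ratio of -2.25 whose interval (-5.40 to -0.19) excludes 0. Thinned HFD-DTR over HFD-WT gave 0.95 (-1.60 to 3.01), on 3 of 67 cells in HFD-DTR and 8 of 345 in HFD-WT. Thinned to 3000 UMIs, HFD-WT over ND-WT gave -1.98 (-3.75 to -0.54). Low class II members were 9 of 188 low class II cells in ND-DTR (4.79%), 16 of 306 in ND-WT (5.23%), 8 of 263 in HFD-DTR (3.04%) and 8 of 352 in HFD-WT (2.27%). The libraries are shared between these 4 ratios, so the ratios are not independent.

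**Figure D2:**
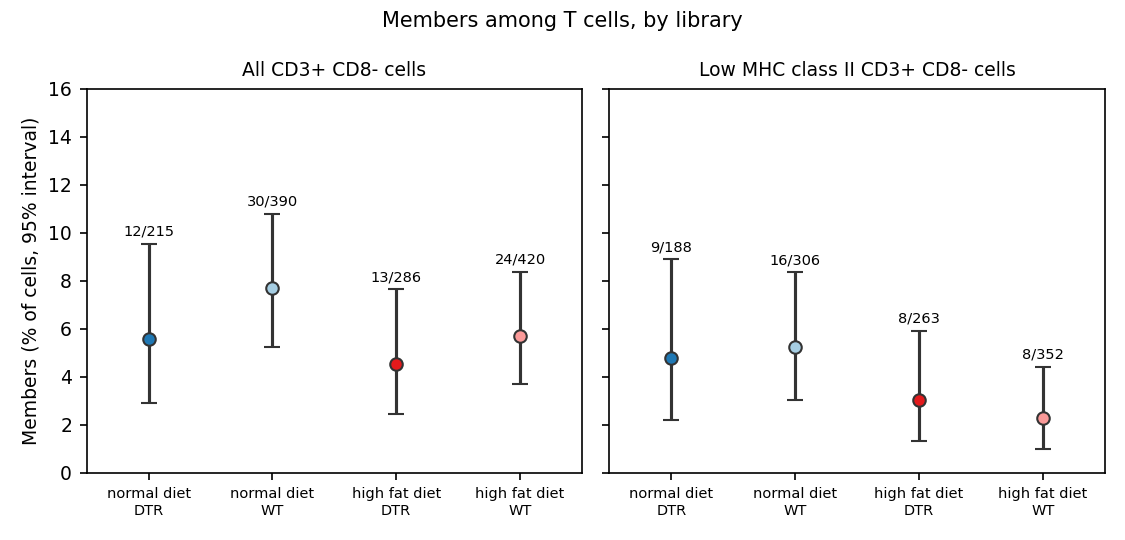
Members as a percentage of CD3+ CD8- cells in each library, for all cells (left) and low MHC class II cells (right), with exact 95% intervals and the counts above each point. All 4 intervals overlap in each panel, from 4.55% to 7.69% on the left and from 2.27% to 5.23% on the right.

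Among low class II members the fat effector genes were common. Rora, a nuclear receptor, was detected in 37 of 41, Klrg1 in 24 (58.5%, 42.1% to 73.7%), Gata3 in 24, Il1rl1 in 21 (51.2%, 35.1% to 67.1%) and Areg in 19 (46.3%). Klrg1 was seen in 0.129% and Il1rl1 in 4.27% of B cells, which should lack both. Of Il1rl1, Klrg1, Areg and Gata3, 8 members had all 4, 11 had 3, 8 had 2, 7 had 1 and 7 had none. Tnfrsf9 (4-1BB), a costimulatory receptor of activated T cells, was detected in 30 members, and the integrin subunit Itgav in 25. Ccr2, a chemokine receptor, was in 18 members, Il10, the suppressive cytokine, in 11 and Ikzf4 (Eos) in 11.

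A smaller number carried genes of resting lymphoid cells. Ccr7, Tcf7 and Lef1, which mark T cells that circulate through lymph nodes, were detected in 5, 5 and 3 of the 41 members, against 32, 35 and 34 of 119 low class II conventional CD4 T cells. Other helper programs were rare. Tbx21, the regulator of type 1 cells, was in 3 members and Cxcr3 in 9. Il17a, Il4 and Tigit were in 0 of 41, which allows up to 8.60% of cells with a UMI by the exact interval. At a median of 3883 UMIs this limits cells with a UMI, not cells that express the gene. Pparg was detected in 4 members. Mki67, a cell cycle antigen, was in 5.

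**Figure D3:**
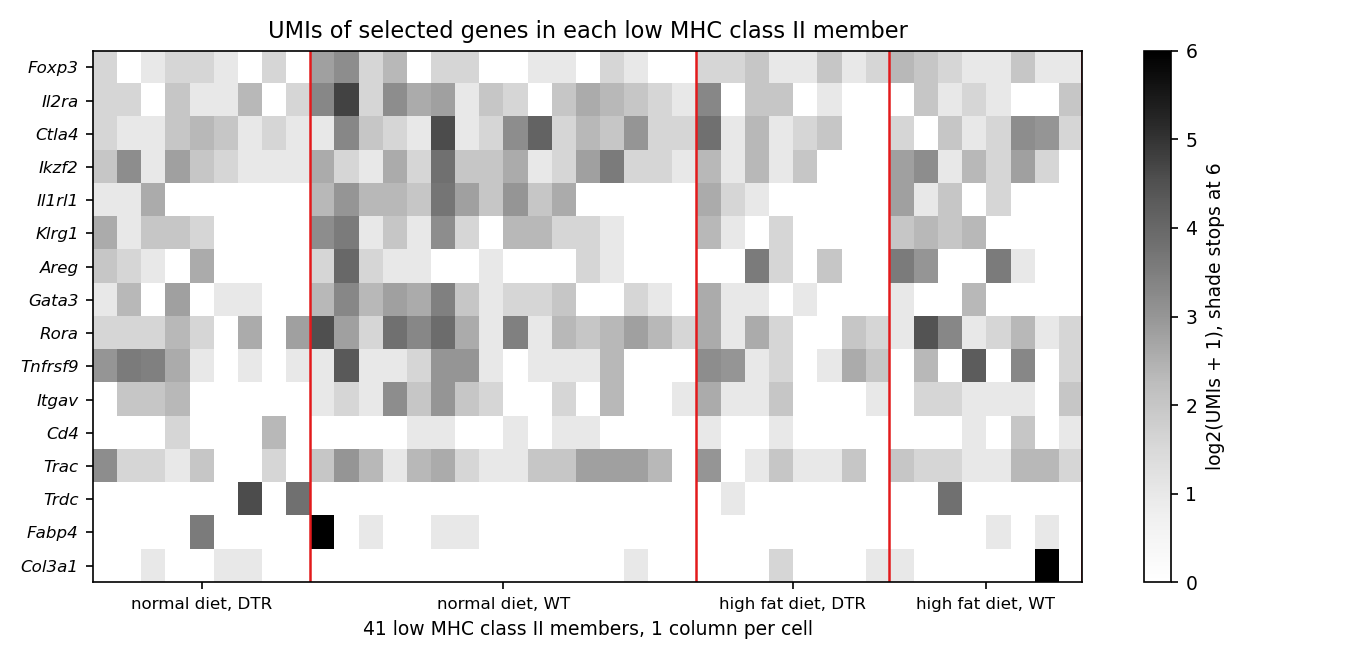
UMIs of 16 genes in each of the 41 low MHC class II members, 1 column per cell, as log2(UMIs + 1) in grey up to 6, with libraries separated by red lines. Il1rl1, Klrg1, Areg and Gata3 are all present in 8 cells and all absent in 7, and the black squares are the members with 520 Fabp4 and 80 Col3a1 UMIs.

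The members were then compared with conventional CD4 T cells of the same libraries, on UMIs summed per library, with the library as a block. Conventional cells needed a Cd4 UMI, which 12 of the 41 low members had. The genes of the rule were left out, and p-values come from edgeR's quasi-likelihood test adjusted over all genes tested. Over all 79 members, 22 of 3697 genes were higher (0.595%) and 17 lower (0.46%). Over the 41 low class II members and the 119 low class II conventional cells, which had a median of 2947 UMIs, 53 of 711 genes were higher (7.45%) and 34 lower (4.78%). Of the higher genes 11 were shared, which is 50% of the first list and 20.8% of the second. Of the lower genes 11 were shared too, which is 64.7% and 32.4%. Only 11 of the 22 higher genes and 11 of the 17 lower genes of the first list were tested in low members. Each of those tested was shared. In low members 49 of the 53 were higher in all 4 libraries and 32 of the 34 lower. The 4 libraries are the replicates of this test, so its p-values measure the spread between these libraries. Without ND-WT, 7 genes were higher and 0 lower in low members (43 lower at an unadjusted p under 0.05 with edgeR), and without HFD-WT 18 and 6. Over all members the counts were 2 and 1 without ND-WT, and 8 and 3 without HFD-WT.

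Klrg1, an inhibitory receptor that binds cadherins (chromosome 6, 122270596 to 122282882, minus strand, mm10), showed the widest gap. It stood at 462 CPM in ND-DTR, 486 in ND-WT, 246 in HFD-DTR and 297 in HFD-WT members, against 16.1 CPM in ND-DTR, 16.5 in ND-WT, 0 in HFD-DTR and 5.34 in HFD-WT conventional cells. All 4 member values lay above all 4 conventional values. The log2 fold change was 5.09 ± 0.46 (SE, 4 against 4 sums, edgeR adjusted p = 4.9e-06). With all members it was 3.88 ± 0.34 (edgeR adjusted p = 3.3e-05). Leaving out each library in turn kept its call, with fold changes of 4.85 to 5.29. Thinned to 2000 UMIs, Klrg1 was detected in 13 of 33 low members and 2 of 97 conventional cells.

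Areg, whose product is known to act in tissue repair (chromosome 5, 91139599 to 91148432, plus strand), stood at 363 CPM in ND-DTR, 259 in ND-WT, 562 in HFD-DTR and 636 in HFD-WT low members. Conventional cells had 16.1 CPM in ND-DTR, 0 in ND-WT, 27.1 in HFD-DTR and 48.1 in HFD-WT. The groups did not overlap, and no left-out library ended the call. The log2 fold change was 4.25 ± 0.43 (SE, edgeR adjusted p = 8.1e-06). Over all members Areg did not pass the test, with a log2 fold change of 0.99 and an edgeR adjusted p of 0.29. Conventional cells of ND-WT stood at 232 CPM over all cells of the set and at 0 in the low class II ones.

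Il1rl1 (chromosome 1, 40429570 to 40465415, plus strand) stood at 231 CPM in ND-DTR, 600 in ND-WT, 281 in HFD-DTR and 254 in HFD-WT low members. Conventional cells had 145 CPM in ND-DTR, 49.4 in ND-WT, 0 in HFD-DTR and 5.34 in HFD-WT. Members were higher in each library, by a log2 fold change of 3.11 ± 0.55 (SE, edgeR adjusted p = 0.0017). Without HFD-WT the value was 2.63 and the edgeR adjusted p 0.059, and without ND-WT it had too few UMIs to be tested. After thinning, 15 of 33 low members and 4 of 97 conventional cells had an Il1rl1 UMI. The conventional share, 5.04% before thinning, lay between the 4.27% of B cells and the 6.50% of fibroblasts. These shares are not at equal depth. The medians were 2947 UMIs in conventional cells, 5491 in B cells and 11682 in fibroblasts. The conventional cells were low class II only, while 95.9% of B cells were high. The fibroblast share ran from 0.947% in ND-WT to 12.9% in HFD-DTR.

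The 2 promoters that the RefSeq table lists for Il1rl1 are shown because Il1rl1 and Gata3 were both higher in members and the letters AGATAA are a core that GATA factors are known to bind. The sequences run from 250 bases before to 50 after the start (build GRCm38.p6, chr1:40429320-40429619 and chr1:40439379-40439678, plus strand). Capitals mark AGATAA or its reverse complement, searched on both strands.
Il1rl1 promoter 1: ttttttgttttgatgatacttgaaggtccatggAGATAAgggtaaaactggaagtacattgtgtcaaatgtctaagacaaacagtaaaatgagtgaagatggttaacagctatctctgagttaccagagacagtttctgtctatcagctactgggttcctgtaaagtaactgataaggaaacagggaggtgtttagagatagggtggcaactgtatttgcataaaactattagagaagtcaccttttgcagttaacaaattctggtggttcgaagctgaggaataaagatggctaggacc
Il1rl1 promoter 2: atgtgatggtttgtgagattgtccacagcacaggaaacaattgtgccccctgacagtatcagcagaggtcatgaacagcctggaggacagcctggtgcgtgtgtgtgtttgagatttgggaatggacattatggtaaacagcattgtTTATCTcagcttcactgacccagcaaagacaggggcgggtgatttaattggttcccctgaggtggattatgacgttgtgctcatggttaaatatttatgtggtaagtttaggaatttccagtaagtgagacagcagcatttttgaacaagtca
The match lay 217 bases before the start in the first and, on the other strand, 103 bases before it in the second. The letters occur in 11.2% of the 32851 promoters of the table. They were not found in the windows of Areg, Id2, Gata3, Rora or Itgav. A match is not evidence of binding.

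Gata3, Rora and Id2, transcription regulators of the list, were also higher, and Pparg was not tested. Gata3 stood at 429 CPM in ND-DTR, 538 in ND-WT, 281 in HFD-DTR and 106 in HFD-WT low members, against 274 CPM in ND-DTR, 107 in ND-WT, 54.3 in HFD-DTR and 85.5 in HFD-WT conventional cells. It was higher in each library, least so in HFD-WT (log2 fold change 1.44 ± 0.38, SE, edgeR adjusted p = 0.019). Without ND-WT the value was 0.89 (edgeR adjusted p = 0.31), and without HFD-WT 1.68 (edgeR adjusted p = 0.059). Rora was between 633 and 1097 CPM in members and between 298 and 560 CPM in conventional cells (1.19 ± 0.25, edgeR adjusted p = 0.0048). Id2, an inhibitor of E proteins found in effector lymphocytes, was between 276 and 859 CPM against 112 to 226 CPM (1.87 ± 0.33, edgeR adjusted p = 0.0017), and without ND-WT its edgeR adjusted p was 0.085. Of the 20 genes in the fat regulatory T cell list, 6 were abundant enough to test and all 6 were higher, with a median log2 fold change of 2.49 against 0.04 for all genes tested. Over all members 13 of the list could be tested and 2 were higher. The list was compiled from known biology with earlier results of these cells in view, so its count is a description.

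Tnfrsf9 and Tnfrsf4, receptors of the TNF receptor family, were higher in members. Tnfrsf9 (chromosome 4, 150914562 to 150946102, plus strand) stood at 1188 CPM in ND-DTR, 476 in ND-WT, 949 in HFD-DTR and 700 in HFD-WT low members. In conventional cells it stood at 145 CPM in ND-DTR, 41.2 in ND-WT, 27.1 in HFD-DTR and 21.4 in HFD-WT, below every member value (log2 fold change 3.93 ± 0.37, SE, edgeR adjusted p = 4.9e-06). Tnfrsf4 (OX40), another receptor of that family, was higher in 3 of 4 libraries, with 1056 CPM in ND-DTR members against 1162 CPM in conventional cells there (1.34, edgeR adjusted p = 0.0068). The tetraspanin Cd81 (2.31) and the actin-capping protein gene Capg (1.77) were the other called members of the core regulatory T cell list, 4 of 7 tested. Itgav, the alpha v chain of integrins that can activate TGF-beta, was between 212 and 387 CPM against 32.3 to 54.3 CPM (2.64 ± 0.37, edgeR adjusted p = 0.00026). Among genes of suppression and checkpoints none of 4 tested passed in low members, with Icos at -0.06, Pdcd1 at 0.14, Tgfb1 at -0.09 and Maf at 0.30. Cish and Pim1, targets of interleukin-2 signalling, were higher by 1.33 and 1.15, as 2 of 6 tested genes of that list. Of the remaining lists, chemokine receptors and homing had 1 gene higher and 1 lower of 5 tested, helper lineage factors 1 higher of 2, interferon response 0 of 2 and cell cycle 0 of 3.

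Cxcl2, a chemokine that draws neutrophils, stood at 66.0 CPM in ND-DTR, 1179 in ND-WT, 457 in HFD-DTR and 1336 in HFD-WT low members, against 16.1 CPM in ND-DTR, 8.23 in ND-WT, 27.1 in HFD-DTR and 208 in HFD-WT conventional cells. The member values spanned a wide range and overlapped those of conventional cells (log2 fold change 3.74 ± 0.49, SE, edgeR adjusted p = 0.00017). Of 10 tested genes of the T cell receptor and NF-kappaB list, Nfkbia, an inhibitor of that pathway, and Gadd45b were higher, by 1.30 and 1.62. Of 10 immediate early genes, Jun, Fosb, Junb and Jund were higher. The promoter of Cxcl2 (chr5:90903649-90903948, plus strand) and one of 2 of Tnfrsf9 (chr4:150927749-150928048, plus strand) are shown from the same RefSeq table. They were picked because Nfkbia and the AP-1 genes Jun, Fosb, Junb and Jund were also higher in members. A link between these genes was not tested. Capitals mark an NF-kappaB core (GGGA, any base, then TTTCC) in the first and TGANTCA, the AP-1 core, in the second, each searched on both strands.
Cxcl2 promoter: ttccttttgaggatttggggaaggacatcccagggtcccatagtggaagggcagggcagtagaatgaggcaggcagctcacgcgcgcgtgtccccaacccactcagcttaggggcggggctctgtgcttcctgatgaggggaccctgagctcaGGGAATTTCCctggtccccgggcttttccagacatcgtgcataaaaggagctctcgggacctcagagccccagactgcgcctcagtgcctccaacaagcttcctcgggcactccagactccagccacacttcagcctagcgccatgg
Tnfrsf9 promoter 2: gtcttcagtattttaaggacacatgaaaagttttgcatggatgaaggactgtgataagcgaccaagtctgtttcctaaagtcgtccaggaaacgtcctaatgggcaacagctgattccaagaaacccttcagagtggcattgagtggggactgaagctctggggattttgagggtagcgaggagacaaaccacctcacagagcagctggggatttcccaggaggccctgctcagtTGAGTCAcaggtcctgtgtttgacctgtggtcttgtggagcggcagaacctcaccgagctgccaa
The match in Cxcl2 lay 97 bases before the start, and its letters occur in 0.411% of promoters in the table. The match in Tnfrsf9 lay 15 bases before the start, and TGANTCA occurs in 7.81% of promoters. The other Tnfrsf9 promoter of the RefSeq table, not shown, had 0 matches. Neither match says that a factor was bound.

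Genes of the cell skeleton and of lipid storage were higher too. S100a6, a calcium-binding protein of motile cells, was between 1125 and 5753 CPM in low members and between 488 and 1458 CPM in conventional cells (log2 fold change 1.45 ± 0.19, SE, edgeR adjusted p = 0.00017). S100a4 (1.27), the filament vimentin, Vim (1.22), and Lgals1, S100a10 and S100a11 were also higher, so 6 of 9 tested genes of the S100 and annexin list passed. Lmna, a protein of the nuclear lamina, was between 693 and 1304 CPM against 81.4 to 428 CPM (1.93 ± 0.28). Both tested genes of the lipid list passed: Plin2, which coats lipid droplets (1.99 ± 0.35, edgeR adjusted p = 0.0017), and Dgat1, the enzyme of the last step of triglyceride synthesis (1.11 ± 0.29, edgeR adjusted p = 0.019). Over all members Lpl, a lipase, was higher by 1.32 as well; those sums include the high class II barcodes. Sparc (2.02) and Mt1 (1.87) were higher in low members as well. The 48 Sparc UMIs of ND-WT low members lay in 1 cell and the 132 of HFD-WT in 2 cells. ND-DTR low members had 2 Sparc UMIs and HFD-DTR ones 6. Fibroblast markers summed to 198 to 10813 CPM in low members and 90.6 to 10795 CPM in conventional cells. The highest of each was in HFD-WT, and the part of these markers in S100a6, Sparc and Mt1 was not tested.

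Of the resting lymphoid list 1 of 4 tested genes was lower in low members and 2 of 10 over all members, and of the cytotoxic list 2 of 2 were lower in low members. Over all members 1 of 5 cytotoxic genes was lower and 1 higher. Ccr7, the receptor that guides T cells to lymph nodes, stood at 99.0 CPM in ND-DTR, 41.4 in ND-WT, 35.1 in HFD-DTR and 148 in HFD-WT low members. Conventional cells had 194 CPM in ND-DTR, 247 in ND-WT, 461 in HFD-DTR and 363 in HFD-WT, all above the members (log2 fold change -1.88 ± 0.41, SE, edgeR adjusted p = 0.0063). Ms4a4b, a membrane protein of T cells, was between 70.3 and 891 CPM in members and between 1113 and 1533 CPM in conventional cells (-2.21 ± 0.36, edgeR adjusted p = 0.00081). Cd28, the costimulatory receptor, was between 70.3 and 297 CPM against 326 to 565 CPM (-1.48 ± 0.31, edgeR adjusted p = 0.0054), and Lck, the kinase of the T cell receptor, was lower by a log2 change of -0.97. Both tested cytotoxic genes were lower, the granule protein gene Nkg7 (-1.40) and the chemokine gene Ccl5 (-1.67). Without ND-WT the edgeR adjusted p was 0.093 for Ms4a4b and 0.1 for Cd28, and without HFD-WT 0.051 and 0.053. None of the 6 tested MHC class I genes passed. Over all members Tcf7, a factor of resting T cells, was lower, with a log2 fold change of -2.30 ± 0.50 (edgeR adjusted p = 0.0395), and so was S1pr1, the receptor for egress from tissue, at -1.77. Gzmb and Cxcl3 were higher there, by 3.23 and 3.47, and neither had enough UMIs to be tested in low members.

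**Figure D4:**
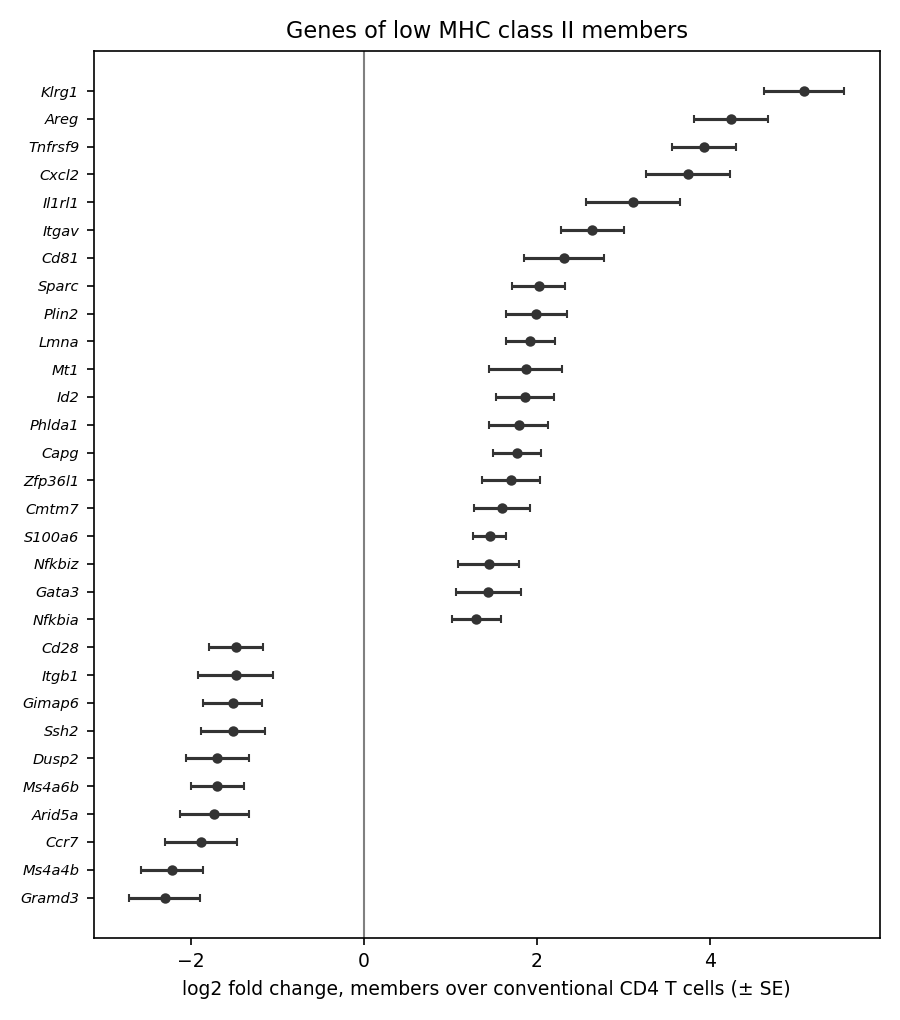
Log2 fold change of low MHC class II members over low MHC class II conventional CD4 T cells (horizontal axis, points with SE bars, 4 sums against 4) for the 20 highest and 10 lowest genes with the same direction in all 4 libraries. Klrg1 at 5.09 and Areg at 4.25 lead, and Gramd3 at -2.30 is lowest.

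Group 2 innate lymphoid cells of fat are known to carry ST2 as well. The set used for them was CD3-negative cells with Gata3 and Rora UMIs and under 5 C1q UMIs (387 low class II cells). No Ptprc UMI or other lymphoid gene was required. Its median depth was 6061 UMIs in HFD-DTR, against 3405 in ND-DTR, 3898 in ND-WT and 3224 in HFD-WT. Il1rl1 in this innate set stood at 402 CPM in ND-DTR, 787 in ND-WT, 89.7 in HFD-DTR and 381 in HFD-WT. These values were above those of members in 3 of 4 libraries, with counting intervals that overlapped in each of the 3. Klrg1 in the innate set was at 173 CPM in ND-DTR, 304 in ND-WT, 35.9 in HFD-DTR and 252 in HFD-WT, below members in each library, though in HFD-WT the intervals overlapped. Il13, a cytokine of type 2 cells, was at 0 UMIs in low members of 3 libraries and was detected in 2 of 41 low members. The fibroblast list summed to between 3843 and 19460 CPM in the innate set, against 198 to 10813 CPM in members, and no test of these differences was run. Whether stromal cells entered the innate set was not tested.

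**Figure D5:**
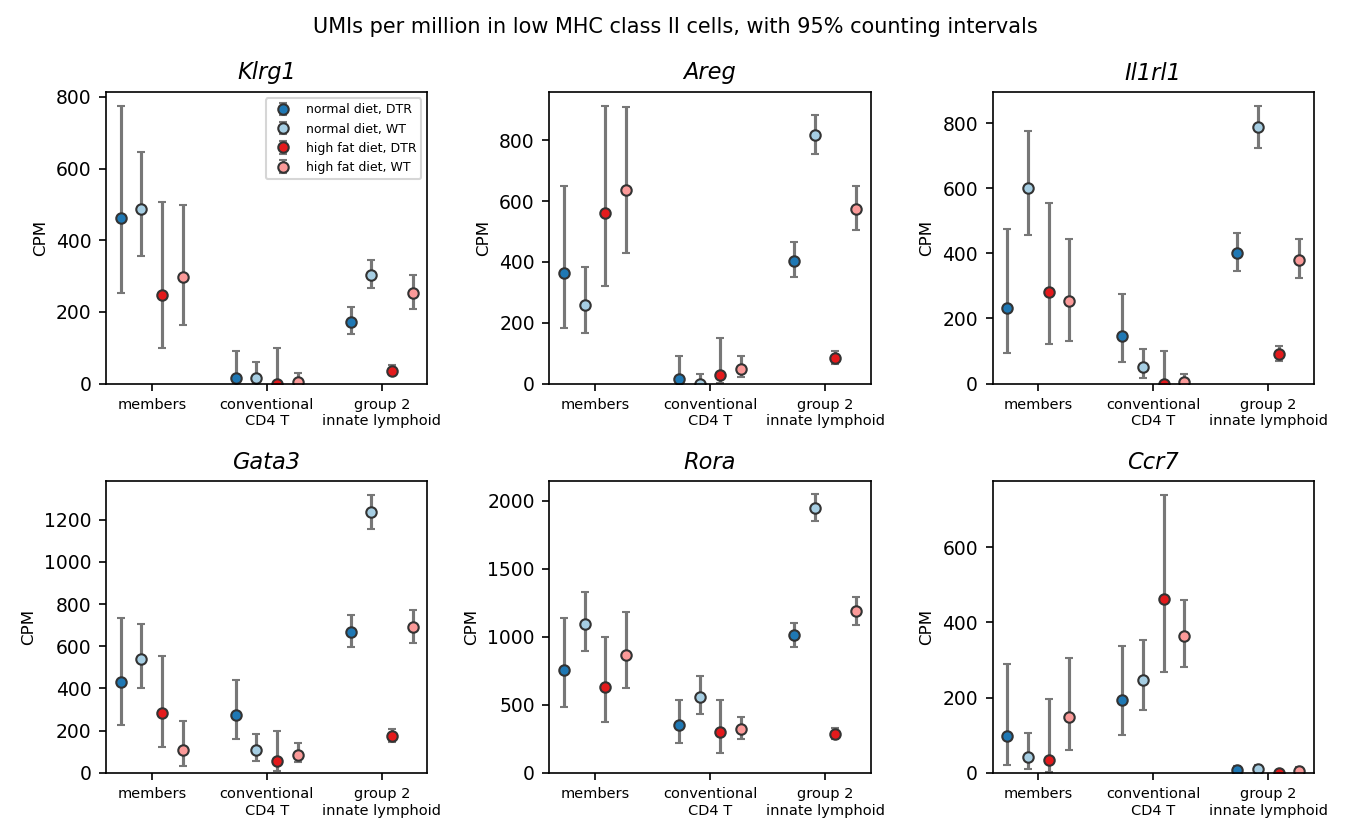
CPM of 6 genes in low MHC class II members, conventional CD4 T cells and the group 2 innate lymphoid set, 1 point per library with exact Poisson 95% counting intervals (linear axes). Gata3 and Rora are among the genes shown and chose the innate set, so their presence there was fixed by selection. Klrg1 lies between 246 and 486 CPM in members and at or below 16.5 CPM in conventional cells, while Ccr7 lies the other way.

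Between libraries, genes were counted as past 2-fold when the log2 ratio of CPM reached 1 in size, the counting interval excluded 0 and at least 3 members of the higher library had a UMI. Over all members ND-DTR over ND-WT had 6.53% of genes higher and 3.47% lower, and HFD-DTR over HFD-WT had 7.3% higher and 2.75% lower. HFD-WT over ND-WT had 2.71% higher and 5.45% lower, and HFD-DTR over ND-DTR had 5.04% higher and 6.8% lower. These splits depended on scaling: with TMM factors the counts turned to 77 higher and 369 lower in ND-DTR over ND-WT, where CPM gave 216 and 115. In HFD-DTR over HFD-WT they turned to 82 higher and 206 lower, where CPM gave 204 and 77. HFD-WT over ND-WT gave 152 and 146 with TMM against 116 and 233, and HFD-DTR over ND-DTR 110 and 56 against 69 and 93.

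Genes of other cell types were among the largest of these ratios. Ear2, Cd14 and Mgl2, genes of myeloid cells, led the lower side of ND-DTR over ND-WT, with 0, 5 and 2 UMIs in ND-DTR members against 154, 235 and 89 in ND-WT members. Jchain, the joining chain of antibodies, had 0 UMIs in HFD-DTR members and 2139 in HFD-WT members. Low class II members gave 3.83% of genes higher and 4.79% lower in ND-DTR over ND-WT, and 7.69% and 6.94% in HFD-DTR over HFD-WT. HFD-WT over ND-WT gave 4.03% and 7.79%, and HFD-DTR over ND-DTR 4.2% and 5.93%. The values that follow are for low class II members, each also with every cell scaled to the same total, so that a deep cell weighs no more than a shallow one. Under this scaling the interval was computed on weighted sums, so it does not measure counting error. Counts of genes past 2-fold that are given as scaled equally rest on that interval.

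In normal diet, S100 genes were lower in ND-DTR members than in ND-WT members. S100a6 had 49 UMIs in ND-DTR and 556 in ND-WT, a log2 ratio of -1.83 (-2.28 to -1.41), and -1.80 with cells scaled equally. S100a4 had 72 against 462 UMIs (-1.01, -1.39 to -0.65), S100a10 42 against 281 (-1.07) and Vim 33 against 254 (-1.27). Of 10 measured genes of that list, 7 were past 2-fold lower and 1 higher, with a median of -1.07 against -0.01 for all genes. Scaled equally, 8 were lower. Conventional cells had 55 S100a6 UMIs in ND-DTR and 177 in ND-WT, which is 887 against 1458 CPM. Gamma-delta T cell markers moved with this comparison: the list of 6 genes had 46 UMIs in ND-DTR low members and 5 in ND-WT low members, and Trdc had 36 UMIs in 2 ND-DTR members and 0 in ND-WT. Their part in it was not tested.

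The markers moved unevenly in that comparison. Il1rl1 had 7 UMIs in 3 of 9 ND-DTR members against 58 UMIs in 11 of 16 ND-WT members (log2 ratio -1.38, -2.75 to -0.24, and -1.25 scaled equally). Klrg1, with 14 against 47 UMIs, differed by -0.07 (-1.05 to 0.81), and Gata3, with 13 against 52, by -0.33 (-1.33 to 0.57). Tnfrsf9 was higher in ND-DTR, at 36 against 46 UMIs (1.32, 0.65 to 1.98, and 2.00 scaled equally), and so was Ccr2, at 16 against 17 UMIs (1.59, 0.50 to 2.66). Cxcl2 had 2 UMIs in 1 ND-DTR member against 114 in 10 ND-WT members. Fabp4 had 11 against 523 UMIs, of which 520 lay in 1 cell.

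Within high fat diet, immediate early genes were lower in HFD-DTR members than in HFD-WT members. Of 12 measured, 8 were past 2-fold lower in HFD-DTR than in HFD-WT, with a median of -2.33 against 0.12 for all genes. Scaled equally, 7 were lower, with a median of -1.16. Jun had 4 UMIs in HFD-DTR members against 65 in HFD-WT members, where 3 of 8 cells held them (-3.29, -5.21 to -1.87). Fos had 4 against 41 UMIs, Fosb 10 against 68 and Btg2 2 against 58. Jun in conventional cells stood at 190 CPM in HFD-DTR and 273 CPM in HFD-WT. Dgat1 was higher in HFD-DTR, at 30 against 9 UMIs (2.47, 1.35 to 3.73, and 2.21 scaled equally). Of 6 measured fat regulatory T cell genes none was past 2-fold, and scaled equally Id2 was higher (1.19), with a median of -0.65. Dcn, a fibroblast proteoglycan, had 0 UMIs in HFD-DTR members against 243 in 4 HFD-WT members.

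Between diets, several genes of the fat program were lower in HFD-WT members than in ND-WT members. Gata3 had 5 UMIs in 2 of 8 HFD-WT members and 52 UMIs in 13 of 16 ND-WT members (log2 ratio -2.34, -4.03 to -1.03, and -1.56 scaled equally). Id2 had 13 against 83 UMIs (-1.64, -2.61 to -0.79, and -1.44 scaled equally). Il1rl1 had 12 against 58 UMIs (-1.24, -2.27 to -0.33), and with cells scaled equally its ratio of -0.84 was no longer past 2-fold. Areg went the other way, at 30 UMIs in 4 HFD-WT members against 25 in 8 ND-WT members (1.30, 0.48 to 2.12, and 2.62 scaled equally). Of 10 measured genes of the list, 4 were lower and 1 higher, with a median of -1.26 against -0.13 for all genes. Scaled equally, 3 were lower and 1 higher, with a median of -0.95. Fibroblast markers moved with this comparison: the list of 6 genes had 510 UMIs in HFD-WT low members and 31 in ND-WT low members, and Dcn had 243 UMIs against 1 (8.96, and 7.81 scaled equally). Foxp3 selected all 8 low members in HFD-WT and 10 of the 16 in ND-WT. The part of the fibroblast markers and of the selecting genes in these ratios was not tested.

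The same libraries differed in other groups. Dgat1 had 9 UMIs in HFD-WT members against 62 in ND-WT members (-1.75, -2.94 to -0.73, and -1.52 scaled equally), and S100a4 76 against 462 (-1.57, -1.94 to -1.22). Of 11 T cell receptor and NF-kappaB genes, 5 were lower, with a median of -1.09 against -0.13 for all genes. Of 13 immediate early genes, 7 were higher and 0 lower, with a median of 1.11. Over all measured genes 7.79% were lower and 4.03% higher. The deepest cell, which had 80 Col3a1 UMIs, gave 31.1% of the UMIs of HFD-WT low members. Jun had 65 UMIs in HFD-WT against 30 in ND-WT (2.15, 1.51 to 2.83). In the DTR libraries none of 6 measured fat program genes was past 2-fold in HFD-DTR over ND-DTR: Gata3 had 8 against 13 UMIs (-0.61, -2.09 to 0.77) and Klrg1 7 against 14 (-0.91, -2.46 to 0.50). Scaled equally, and by intervals of weighted sums, 3 were lower and 1 higher, on 8 members against 9: Gata3 at -1.45, Klrg1 at -1.65, Ccr2 at -2.19 and Id2 at 1.35. HFD-WT enters 2 of these comparisons and so does ND-WT, so they are not independent.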

How the data were processed

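Single-cell RNA of sorted fat stromal cells was measured in 4 libraries, each deposited as 8 sequencing runs of 1 library, so 32 records give 1 sample per group. The authors deposited 1 aggregated matrix of UMI counts per gene and barcode, per the file headers. Cell Ranger 3.1.0 and mm10 are named in the submitters' processing notes. Barcodes were assigned to libraries by their suffix in the order of the deposited aggregation list. Of 31053 gene identifiers, 31011 matched the annotation used for coordinates.

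The cell filter, the member rule and the comparison sets are given with the results. The members and gene lists were chosen with earlier results of these data known, and the 0.3% class II line after these values were seen. The cutoffs for cells high in Trdc, Fabp4 or Col3a1 were also chosen after the values were seen. UMI counts were summed per library and set. edgeR 4.0.16 in R 4.3.3 (filterByExpr, TMM, quasi-likelihood, library block, Benjamini-Hochberg over all genes tested, threshold 0.05) compared members with conventional CD4 T cells; the 4 class II genes were also left out in low class II cells. SE values are the log2 fold change divided by the square root of F. DESeq2 1.42.0 was an alternative. The fit was tested on simulated data. Doublets were scored with scrublet in scanpy 1.11.5 per library, and none were removed in the main values. Thinning used 2000 UMIs, with 3000 as an alternative. Between libraries, with 1 library a group, genes with at least 20 UMIs over both were given as ratios of CPM, UMI counts scaled to the total of the members summed, with exact 95% intervals, Clopper-Pearson for shares, and a library at 0 against a floor of 3 UMIs. Where cells were scaled equally, the same interval formula was applied to weighted sums, so that interval is not exact and does not measure counting error. Total UMIs per library were 33390225 in ND-DTR, 37655128 in ND-WT, 64766718 in HFD-DTR and 49142626 in HFD-WT.

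Named genes were the 20 highest and 10 lowest called log2 fold changes with the same direction in 4 libraries, the 6 highest and 6 lowest per comparison between libraries, and members of the lists. Mitochondrial, ribosomal, unnamed, receptor and antibody segment genes were left out of naming. Igkc and, in the lists of which the rule names 2 genes, the further members given in the text were chosen after their values were seen. Promoters came from a RefSeq table of build GRCm38.p6, and Klrg1 is not shown.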

Additional observations from a re-analysis of the deposited data

Results flagged for a closer look

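The genes searched were those chosen for extreme ratios between libraries in low class II members and the members of the gene lists. Other measured genes were not searched. In low class II members 3 of the genes searched moved in opposite directions between the DTR and WT libraries of the 2 diets. All 3 were also among the genes with the most extreme ratios of HFD-DTR over ND-DTR in these members. The difference between diets was not tested, and each sum rests on 1 library. Arpc5, a subunit of the actin-nucleating Arp2/3 complex, had 5 UMIs in ND-DTR members against 45 in ND-WT members, a log2 ratio of -1.50 with an interval of -3.19 to -0.17. Under high fat diet it had 21 UMIs in HFD-DTR against 15 in HFD-WT (1.21, 0.19 to 2.27). Jpt1 had 4 UMIs in ND-DTR against 44 in ND-WT (-1.79, -3.72 to -0.33), and 16 in HFD-DTR against 8 in HFD-WT (1.73, 0.42 to 3.16). Ly6a (Sca-1), a surface protein of activated lymphocytes, went the other way, with 36 UMIs in ND-DTR against 42 in ND-WT (1.45) and 5 in HFD-DTR against 28 in HFD-WT (-1.76). The deepest cell gave 57.9% of the UMIs of HFD-DTR low members.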

How the results depend on the processing

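For shares, no interval of the 4 ratios excluded 0 over all CD3+ CD8- cells at full depth, and some ratios changed sign: with Foxp3-selected members HFD-DTR over ND-DTR was 0.12. With cells thinned to 2000 UMIs, ND-DTR over ND-WT became -2.25 on the log2 scale, and -3.05 in low class II cells, both past 0. HFD-DTR over HFD-WT changed sign, to 0.95 (-1.60 to 3.01) at 2000 UMIs, 2.21 (-0.13 to 4.42) at 3000 and 1.46 (-1.17 to 3.69) in thinned low class II cells. Each of these intervals included 0, on 3 or 4 HFD-DTR members. HFD-WT over ND-WT became -1.98 at 3000 UMIs (-3.75 to -0.54), -1.37 in thinned low class II cells (-3.03 to 0.07) and -0.90 as a share of all CD3+ cells (-1.74 to -0.08). In low class II cells without those high in Trdc, Fabp4 or Col3a1 it was -1.65 (-3.30 to -0.20), with cutoffs chosen after the values were seen. In all low class II cells it was -1.20 (-2.63 to 0.11). With Foxp3-selected low members alone it was -0.52 (-2.07 to 0.97). Foxp3 selected 10 of the 16 low members in ND-WT and all 8 in HFD-WT. HFD-DTR over ND-DTR changed sign too, to 1.97 (-1.16 to 5.55) at 2000 UMIs, 1.03 (-1.30 to 3.25) at 3000 and 3.14 (-0.50 to 8.86) in thinned low class II cells. These intervals included 0 as well, on 3 against 2, 4 against 5 and 3 against 1 members. The cause was not tested.

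Against conventional CD4 T cells over all members, the counts of higher and lower genes were 11 and 7 without TMM, 54 and 69 without a filter on low counts, 5 and 2 with no library block, 14 and 11 with Foxp3-selected members alone, and 53 and 34 in low class II cells. Thinning left 3 lower. Leaving out 1 library gave 2 to 22 higher and 1 to 20 lower. In low class II members DESeq2 gave 33 and 15, no library block 24 and 17, and thinning 22 and 19. Lower genes numbered 110 without a filter, 18 with Foxp3-selected members and 21 without cells high in Trdc, Fabp4 or Col3a1. Leaving out 1 library gave 7 to 68 higher and 0 to 41 lower. No paired analysis was possible because the labels give 1 library per group; the library block is part of the main design.

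Between libraries over all members, ND-DTR over ND-WT had 78 genes higher with at least 50 UMIs, 77 with TMM, 36 in low class II members and 44 with those scaled equally, and 214 lower with all cells scaled equally, 369 with TMM, 45 and 53 in low class II members. HFD-DTR over HFD-WT had 133 higher with Foxp3-selected members, 75 at 50 UMIs, 307 scaled, 82 with TMM, 41 and 38 in low class II members, and 38 lower at 50 UMIs, 179 scaled, 206 with TMM, 37 and 34 in low class II members. HFD-WT over ND-WT had 38 higher at 50 UMIs, 203 scaled, 43 and 45 in low class II members, and 120 lower with Foxp3-selected members, 85 at 50 UMIs, 146 with TMM, 83 and 66 in low class II members. HFD-DTR over ND-DTR had 16 higher at 50 UMIs, 133 scaled, 110 with TMM, 17 and 22 in low class II members, and 150 lower at 10 UMIs, 28 at 50, 56 with TMM, 24 and 32 in low class II members. Depth limits these comparisons to genes above 20 UMIs over 8 to 30 members a library. Counts with cells scaled use intervals of weighted sums, which do not measure counting error.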
